A study of Mus musculus with 6 samples.

Results

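The expression of 10 genes of the NRF2 pathway and of glutathione defence was examined in primary mammary epithelial cells (MEC) and in JNK-deficient tumor cell lines (MEKO). The genes were listed by symbol, as *Nfe2l2* and *Keap1*, which encode NRF2 and its inhibitor, and 8 target genes, *Gclc*, *Gclm*, *Slc7a11*, *Gsta4*, *Txnrd1*, *Srxn1*, *Nqo1* and *Hmox1*. All 10 had an entry of their own among the 37753 entries with values, and all 10 were expressed above the minimum for testing, a mean of 1 FPKM (mapped fragments scaled to gene length and library size) over the 6 libraries. RNA was sequenced from 3 MEC preparations and from 3 MEKO lines, 1 library each, all on the C57/Bl6J strain and all with the *Wap-Cre* transgene. The cells of each MEC preparation (genotype WAPCre+, JNK genes intact) came from virgin females, 3 to 5 per preparation and 10 to 12 weeks of age, which were pooled and grown on collagen I with 5% serum, EGF and insulin. The MEKO lines, numbered 199, 233 and 336, were each grown from a tumor of a parous female, of an age not given for the single lines, in which Cre deleted *Mapk8* and *Mapk9* (genotype Mapk8KO Mapk9KO Cre+). After 2 passages on collagen I these lines were kept on standard dishes, in a growth medium for which serum but no EGF or insulin is listed. *Wap-Cre* is switched on by lactation in luminal epithelial cells. Genotype, tumor origin, age, parity, medium and time in culture therefore cannot be told apart as sources of a difference between the groups.

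NRF2 is a transcription factor that responds to oxidants and electrophiles. In unstressed cells KEAP1 binds NRF2 and presents it to a CUL3 ubiquitin ligase for destruction. When KEAP1 is modified by an electrophile, NRF2 accumulates, pairs with a small MAF protein and binds antioxidant response elements (ARE) in genes for glutathione synthesis, thioredoxin recycling, quinone reduction and heme breakdown. This control acts on the protein, which was not measured here, so the mRNA of *Nfe2l2* is not a reading of NRF2 activity.

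The promoters of the members were read from RefSeq (GRCm38.p6) as windows from 250 bases before to 50 bases after each transcript start, with 9 windows for 7 members. Windows for *Hmox1*, *Gclc* and *Gsta4* were not used here. The core of the ARE, TGACNNNGC on either strand, was found in 4 of the 7 members, in *Txnrd1*, *Gclm*, *Nfe2l2* and *Srxn1*. Over all genes with a window 14% had the core. By window it was in 4 of 9 for the members, against 12.4% of all 32851 windows. Of 116 other pathway genes, listed further below, 20 had the core, or 17.2%, nearer to the share of all genes. Sequence outside the windows was not searched, so a member without a match here is not shown to lack an ARE. The motif of AP1, TGANTCA, a palindrome bound by JUN and FOS proteins, was found in 1 of the 7 members, *Srxn1*, against 8.97% of all genes. None of the TGACNNNGC matches shared bases with an AP1 motif. Runs that differ from this core in a letter were not searched for, so an overlap with such a run is not excluded. A match is a run of letters and was not tested for binding. The stretches upstream of the start that hold these motifs are shown because the ARE is the element through which NRF2 acts and the AP1 motif the one bound by JUN, a substrate of JNK. Capitals mark the motif, and each stretch is given 5′ to 3′ on the strand of the gene.
*Txnrd1*, ARE core 92 bases before the second of 3 starts (chr10:82859084-82859152, plus strand): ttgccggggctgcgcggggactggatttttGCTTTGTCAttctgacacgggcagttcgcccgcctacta
*Gclm*, ARE core 134 bases before the start (chr3:122245393-122245461, plus strand): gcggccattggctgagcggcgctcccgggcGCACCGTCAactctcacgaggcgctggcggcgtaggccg
*Nfe2l2*, ARE core 240 bases before the start (chr2:75704865-75704913, minus strand): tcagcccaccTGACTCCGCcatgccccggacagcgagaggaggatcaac
*Srxn1*, AP1 motif 102 bases before the start (chr2:152105392-152105458, plus strand): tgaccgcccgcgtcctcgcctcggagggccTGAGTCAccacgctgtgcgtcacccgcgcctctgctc
*Srxn1*, AP1 motif 45 bases before the start (chr2:152105449-152105515, plus strand): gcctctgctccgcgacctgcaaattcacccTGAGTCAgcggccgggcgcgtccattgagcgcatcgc
The ARE core of *Txnrd1* and *Gclm* lies on the strand opposite to the gene, and that of *Nfe2l2* on the same strand. The core in *Srxn1* lies 29 bases after the start.

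The targeted genes were examined first. *Mapk8* had 22.5 ± 2.98 FPKM in MEC and fell in MEKO to 3.47 ± 2.30 FPKM (SD, n = 3; limma adjusted p = 0.0146), and *Mapk9* from 22.7 ± 1.53 FPKM to 4.61 ± 2.60 FPKM (limma adjusted p = 0.0122). In lines 199, 233 and 336 *Mapk8* had 5.93, 3.12 and 1.37 FPKM, and *Mapk9* had 7.62, 3.15 and 3.07 FPKM. Line 199 thus kept the most of both. The number of reads behind the values is unknown, and the FPKM values added up to 557991 to 638365 in each library. Markers of luminal epithelium (*Krt8*, *Krt18*, *Krt19*, *Epcam*, *Elf5* and *Cdh1*) were present in MEC, where their sum was 5352 to 8902 FPKM, and lower in MEKO, with 789 to 1962 FPKM and 5 of 6 called lower. *Elf5* was at 0.461 FPKM or less in the MEKO lines. Markers of basal cells (*Krt5*, *Krt14*, *Krt17*, *Trp63*, *Acta2* and *Myh11*) summed to 1484 to 2775 FPKM in MEC and to 2259 FPKM in line 199, but to 10.6 and 58.6 FPKM in lines 233 and 336. In line 199 *Krt5*, *Krt14* and *Trp63* were above the MEC range, *Krt17* was within it, and *Acta2* and *Myh11* were below it, *Myh11* at 0.0812 FPKM. Line 199 also had 1081 FPKM of 6 fibroblast markers, of which *Col1a1* made 599.7 and *Col1a2* 408 FPKM, against 95.7 to 179 FPKM in MEC and 1.82 to 2.38 FPKM in the other lines. In line 199 the fibroblast markers *Col3a1* and *Pdgfra*, at 71.5 and 1.31 FPKM, were also above the MEC range, and *Dcn* and *Lum*, at 0.311 and 0.0264 FPKM, were below it. Endothelial, leukocyte and adipocyte markers, 6 of each, summed to at most 24.9 FPKM in any library. In these bulk samples fewer cells of a type and less RNA per cell cannot be told apart, and the part of cell composition in the results that follow was not tested.

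The question for the NRF2 pathway was whether its genes differed between MEC and MEKO. None of the 10 members passed both thresholds, a limma adjusted p under 0.05 over all 12461 tested genes and a log2 fold change beyond 0.75. Over all tested genes 9.9% passed, 2.64% higher and 7.26% lower in MEKO. Of the members 2, *Txnrd1* and *Gsta4*, had an unadjusted limma p under 0.05, as had 3509 of all tested genes. The median log2 fold change of the members was 0.43, against 0.01 over all tested genes. There were 8 members above 0 and 2, *Keap1* and *Nqo1*, below 0, and 6381 of the 12461 tested genes were above 0. Among the 8, *Gclc* and *Gclm* changed sign under some alternative processing. In 3 members, *Txnrd1*, *Gsta4* and *Hmox1*, all MEKO values lay above all MEC values, which held for 18.5% of all tested genes. In *Keap1* all MEKO values lay below all MEC values, which held for 18.7%. With 3 libraries against 3 the exact permutation test cannot give a two-sided p below 0.1. Fold changes are on the log2(FPKM + 1) scale, which understates the change of genes at low FPKM such as *Slc7a11*. Among the MEC libraries MEC 3 had the lowest value in all 8 target genes and the highest in *Nfe2l2* and *Keap1*, and without it no member was called either.

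**Figure D1:**
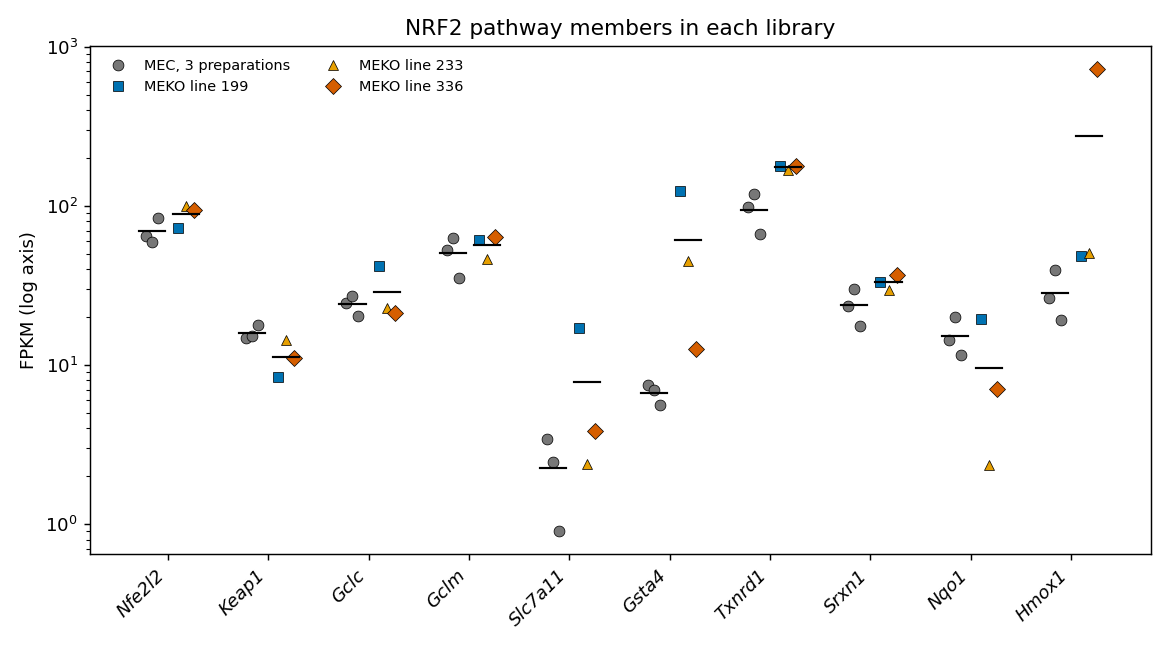
Expression of the 10 members in each library (FPKM, log axis). Grey circles are the 3 MEC preparations, colored symbols the 3 MEKO lines, and black bars the group means; the MEKO lines lie close together in *Txnrd1*, at 169 to 178 FPKM, and far apart in *Hmox1*, *Gsta4*, *Slc7a11* and *Nqo1*.

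In MEC the means ran from *Txnrd1*, at 94.8 FPKM, through *Nfe2l2*, *Gclm*, *Hmox1*, *Gclc*, *Srxn1*, *Keap1* and *Nqo1* to *Gsta4*, at 6.69 FPKM, and *Slc7a11*, at 2.27 FPKM. From *Txnrd1* down to *Nqo1* the range of each gene over the MEC libraries overlapped with that of the next in this order. Within each MEC library, however, *Gclm* was above *Hmox1*. *Gsta4* and *Slc7a11* each lay below the preceding gene without overlap. In MEKO the highest means were those of *Hmox1*, at 275 FPKM, and *Txnrd1*, at 175 FPKM, and *Gsta4*, at 60.8 FPKM, stood between *Nfe2l2* and *Gclm*.

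*Nfe2l2* (chromosome 2 of GRCm38, 75675513 to 75704641) had 64.4, 59.1 and 84.5 FPKM in MEC 1, 2 and 3, and 73.1, 99.4 and 94.7 FPKM in lines 199, 233 and 336. Lines 233 and 336 were above the MEC range and line 199 was within it. The groups differed by 0.36 on the log2 scale (standard error 0.20, 95% interval -0.12 to 0.84, limma adjusted p = 0.286). *Keap1* (chromosome 9, 21229730 to 21239361) had 14.7, 15.3 and 17.9 FPKM in MEC, and 8.36, 14.3 and 11.1 FPKM in lines 199, 233 and 336. Each line was below the MEC range, line 233 by the least and line 199 by the most. Between the groups the log2 fold change was -0.49 (standard error 0.22, 95% interval -1.02 to 0.03, limma adjusted p = 0.2). Reads of *Keap1* may include those of *Gm16754*, which lies on the opposite strand and shares 10.9% of its exonic bases, since strand-specific counting is not stated.

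Glutathione is made in steps that begin with glutamate cysteine ligase, whose catalytic and modifier subunits are encoded by *Gclc* and *Gclm*. *Slc7a11* encodes the subunit of the cystine transporter xCT that supplies the cysteine. *Gclc* (chromosome 9, 77754535 to 77794485) had 24.7, 27.1 and 20.4 FPKM in MEC, and 41.9, 22.7 and 21.2 FPKM in lines 199, 233 and 336. Line 199 was above the MEC range and the others were within it. *Gclm* (chromosome 3, 122245557 to 122270732) had 52.98, 62.9 and 35.4 FPKM in MEC, and 60.9, 46.3 and 63.95 FPKM in the lines, which overlapped with MEC. The log2 fold change was 0.18 for *Gclc* (95% interval -0.50 to 0.87, limma adjusted p = 0.704) and 0.20 for *Gclm* (95% interval -0.40 to 0.80, limma adjusted p = 0.634). The direction was not stable, since without line 199 the log2 fold change of *Gclc* was -0.12, and without MEC 3 that of *Gclm* was -0.03.

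*Slc7a11* (chromosome 3, 49892526 to 50443614) was the member with the lowest expression in MEC, at 3.44, 2.45 and 0.906 FPKM. Line 199 had 17.1 FPKM, which was 7.54 times the MEC mean, and lines 233 and 336 had 2.39 and 3.85 FPKM. Line 199 thus stood apart, line 233 was within the MEC range and line 336 just above it. Over the 3 lines the log2 difference was 1.12 (SE 0.67, 95% interval -0.49 to 2.72, limma adjusted p = 0.320). Without line 199 it was 0.40 (limma adjusted p = 0.543).

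*Gsta4* encodes a glutathione S-transferase that conjugates 4-hydroxynonenal, a product of lipid peroxidation. *Gsta4* (chromosome 9, 78182774 to 78209349) had 7.48, 6.997 and 5.59 FPKM in MEC, and 125, 45.03 and 12.5 FPKM in lines 199, 233 and 336. All lines were above MEC, but by unequal amounts, 18.7-fold over the MEC mean in line 199, 6.73-fold in line 233 and 1.87-fold in line 336. The log2 fold change was 2.48 (standard error 0.75, 95% interval 0.67 to 4.30, limma adjusted p = 0.091). Without line 336 it was 3.32, past the threshold (limma adjusted p = 0.0191), and without line 199 it was 1.71 (limma adjusted p = 0.0808). With any one MEC library left out the limma adjusted p was 0.216 to 0.249.

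*Txnrd1* encodes the cytosolic thioredoxin reductase, and *Srxn1* encodes sulfiredoxin, which restores overoxidized peroxiredoxins. *Txnrd1* (chromosome 10, 82833951 to 82897712) had 98.6, 119.5 and 66.3 FPKM in MEC, and 178, 169 and 178 FPKM in lines 199, 233 and 336. The lines were all above MEC and close to each other. The standard deviation between lines was 0.04 on the log2 scale, and only 2.46% of tested genes had a smaller one. Between MEC preparations it was 0.43. The mean was 1.84-fold higher in MEKO, with 175 ± 5.42 FPKM against 94.8 ± 26.8 FPKM (SD, n = 3), with a log2 fold change of 0.92 (standard error 0.23, 95% interval 0.37 to 1.46). Its limma adjusted p, 0.0534, was above the threshold. Over 13 alternatives the adjusted p of *Txnrd1* was 0.0436 to 0.157, and it passed in 2 of them, quantile normalization and array weights. Without MEC 3 the log2 fold change of *Txnrd1* was 0.68 (limma adjusted p = 0.0821), and without MEC 1 the adjusted p was 0.157. *Srxn1* (chromosome 2, 152105516 to 152111376) had 23.4, 30.1 and 17.5 FPKM in MEC, and 33.4, 29.4 and 36.6 FPKM in the lines. Line 233 was within the MEC range and the others were above it. For *Srxn1* the log2 difference was 0.50 (SE 0.22, 95% interval -0.04 to 1.03, limma adjusted p = 0.204).

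*Nqo1*, which encodes a quinone reductase and is widely used as a reporter gene of NRF2, was the target with the lowest fold change. *Nqo1* (chromosome 8, 107388225 to 107403206) had 14.3, 19.97 and 11.6 FPKM in MEC, and 19.4, 2.36 and 7.03 FPKM in lines 199, 233 and 336. Line 199 was within the MEC range, and lines 233 and 336 were below it, with a MEC mean 6.49 and 2.17 times their values. On the log2 scale the difference was -0.96 (standard error 0.63, 95% interval -2.48 to 0.56, limma adjusted p = 0.363). It was -1.62 without line 199 (limma adjusted p = 0.0565) and -0.32 without line 233 (limma adjusted p = 0.692).

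*Hmox1* encodes heme oxygenase 1, which breaks heme into biliverdin, carbon monoxide and iron. *Hmox1* (chromosome 8, 75093621 to 75100589) had 26.3, 39.7 and 19.2 FPKM in MEC, and 48.7, 50.7 and 725 FPKM in lines 199, 233 and 336. All lines were above MEC, and line 336 stood far above the others, at 25.5 times the MEC mean. The standard deviation between lines was 2.22 on the log2 scale, larger than in 98.4% of tested genes. The log2 fold change was 2.13 (standard error 1.04, 95% interval -0.39 to 4.64, limma adjusted p = 0.239). Without line 336 it was 0.85 (limma adjusted p = 0.161).

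**Figure D2:**
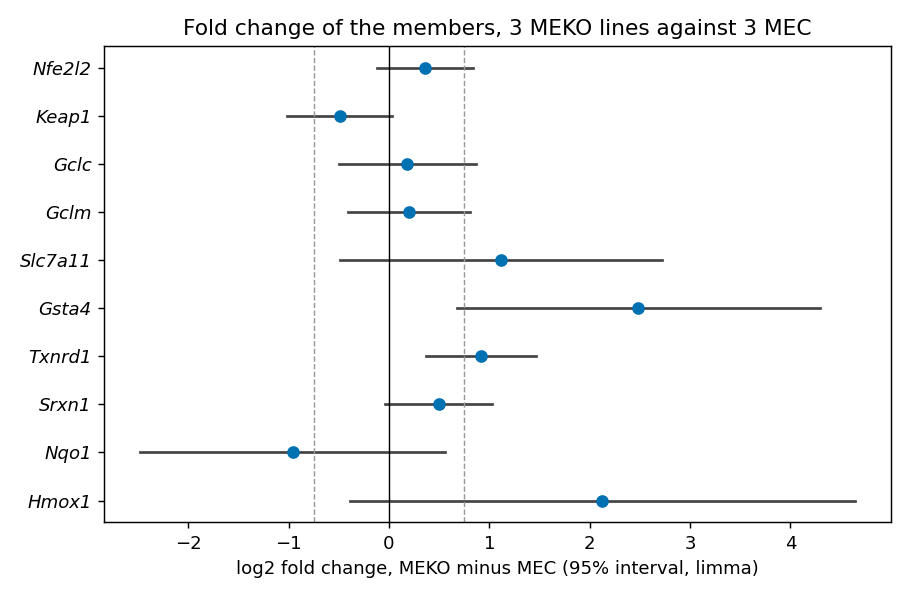
Log2 fold change of each member, MEKO minus MEC on log2(FPKM + 1), with 95% intervals from the moderated fit. Dashed lines mark a change of 0.75 in either direction; the intervals of *Gsta4* and *Txnrd1* lie above 0, and those of the other 8 members include 0.

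Each line was then set against the 3 MEC libraries on its own. A value was counted as past the fold where it was outside the MEC range and differed from the MEC mean by more than 0.75 on the log2(FPKM + 1) scale. With 1 library per line there is no test. In line 199 there were 5 higher members, *Hmox1*, *Gclc*, *Txnrd1*, *Slc7a11* and *Gsta4*, against 12.8% of all tested genes, and 1 lower member, *Keap1*, against 16.9%, or 6 of 10 either way against 29.8%. In line 233 there were 3 higher members, *Hmox1*, *Txnrd1* and *Gsta4*, against 9.92%, and 1 lower member, *Nqo1*, against 17.5%, or 4 of 10 either way against 27.4%. In line 336 the same 3 members were higher, against 11.2%, and *Nqo1* was lower, against 18.2%, or 4 of 10 either way against 29.4%. Thus, with all 3 MEC libraries as reference, *Hmox1*, *Txnrd1* and *Gsta4* were past the fold upward in each line. *Slc7a11* and *Gclc* were past it upward in line 199 alone. *Nfe2l2*, *Gclm* and *Srxn1* were past the fold in no line. The lines share the 3 MEC libraries as their reference. Without MEC 3 the members past the fold were 3 in place of 6 in line 199, 2 in place of 4 in line 233 and 2 in place of 4 in line 336. The share of all tested genes past the fold was not computed without MEC 3, so these counts have no background. Without MEC 3 no member was past the fold upward in every line. *Gsta4* was so in lines 199 and 233, *Hmox1* in line 336 alone and *Txnrd1* in none.

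**Figure D3:**
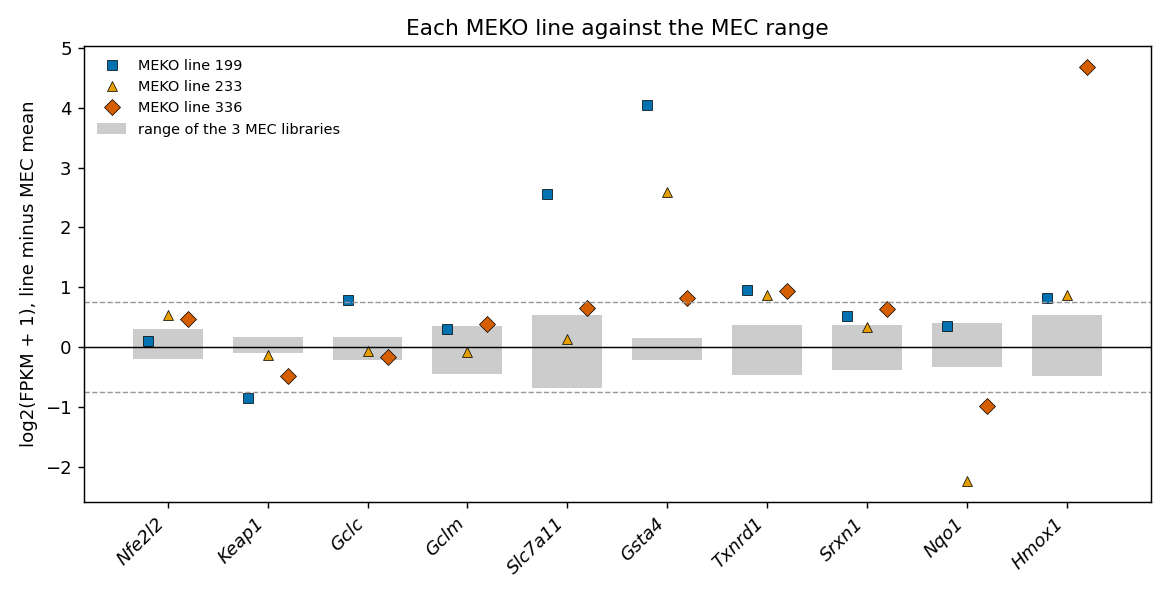
Difference of each MEKO line from the MEC mean on the log2(FPKM + 1) scale. Grey bars show the range of the 3 MEC libraries and dashed lines a difference of 0.75; *Gsta4* is highest in line 199, *Hmox1* in line 336, and *Nqo1* lowest in line 233.

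The rank of the lines differed between members. Line 199 had the highest value of *Gsta4*, *Slc7a11*, *Gclc* and *Nqo1* among the lines and the lowest of *Keap1* and *Nfe2l2*. Line 336 had the highest *Hmox1*, *Gclm* and *Srxn1*. *Nqo1* and *Hmox1* both lie on chromosome 8, and line 336 was 25.5-fold above MEC in *Hmox1* while below it in *Nqo1*. *Gclc* and *Gsta4* lie close together on chromosome 9, and lines 233 and 336 were above MEC in *Gsta4* but not in *Gclc*. Protein-coding genes tested within 2 Mb on either side of a member were compared in the same way, as a description of each neighbourhood. Around *Gsta4* the 15 neighbours had a median difference from MEC of 0.28 in line 199, where *Gsta4* had 4.04. Around *Nqo1* the 38 neighbours had -0.11 in line 233, where *Nqo1* had -2.25. Around *Slc7a11* the 8 neighbours had 0.22 in line 199, where *Slc7a11* had 2.55. Around *Hmox1* there were only 3 neighbours, with a median of 1.02 in line 336, where *Hmox1* had 4.69. Around *Gclm* the 18 neighbours were at -0.55, -0.86 and -1.06 in lines 199, 233 and 336, and *Gclm* was at 0.30, -0.08 and 0.38.

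Other genes of the pathway were taken from 9 lists, written by hand with 131 entries found in the table, of which 114 were tested. Of these 6 were called higher in MEKO and 11 were called lower, or 5.26% and 9.65%, against 2.64% and 7.26% of all tested genes. The shares of all tested genes are also the background for the counts of each list below. The median log2 fold change over the 114 was 0.08. All 4 genes called in glutathione synthesis and turnover fell, and 3 of the 4 genes called in detoxification and transport rose. The lists as a whole did not follow their called genes, with medians of 0.37 and -0.04. In the former 8 of 13 tested genes were above 0, and in the latter 8 of 19. *Nfe2l3*, *Ggt1*, *Gpx3*, *Aldh3a1* and *Slc48a1* passed under each alternative processing, and the other 12 called genes lost the call in at least 1. *Ggt1* and *Gpx3* had MEKO means of 0.197 and 0.299 FPKM, and *Aldh3a1* a MEC mean of 0.649 FPKM. These genes thus met the minimum for testing, a mean of 1 FPKM, through the other group alone. Leaving out MEC 1, 2 or 3 left 2 higher genes each time, and 3, 3 and 4 lower genes. Over all genes the calls fell in these runs too. Those higher went from 329 to 48, 56 and 89, and those lower from 905 to 211, 245 and 388.

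The list of NRF2 partners and regulators had 16 tested genes, of which 1 was called, with a median log2 fold change of 0.03. *Nfe2l3*, which encodes a related transcription factor of the same family, had 16.8 ± 2.04 FPKM in MEC and fell to 3.22 ± 1.37 FPKM in MEKO (SD, n = 3), by 2.12 on the log2 scale (limma adjusted p = 0.00675). In the list of glutathione synthesis, turnover and cystine supply 4 of 13 tested genes were called, all lower, against 7.26% of all tested genes. The list did not fall as a whole, with 8 genes above 0, 5 below 0 and a median log2 fold change of 0.37. *Gsr*, which encodes the reductase that regenerates glutathione with NADPH, had 171, 161 and 167 FPKM in MEC, and 86.6, 56.2 and 64.8 FPKM in lines 199, 233 and 336. The values of *Gsr* were thus narrow in MEC and lower in every line, with a log2 fold change of -1.28 (limma adjusted p = 0.0119). *Ggt1*, which encodes a surface enzyme that cleaves glutathione outside the cell, had 11.5, 10.9 and 7.78 FPKM in MEC and 0.212 and 0.379 FPKM in lines 199 and 336, and was listed at 0 in line 233. In *Ggt1* the log2 fold change was -3.20 (limma adjusted p = 0.00167). *Ggct* and *Oplah*, which encode enzymes of the same gamma-glutamyl cycle, fell by 1.33 and 1.65 on the log2 scale (limma adjusted p = 0.0207 and 0.0487). *Oplah* shares 6.6% of its exonic bases with *Exosc4* on the opposite strand.

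Of 6 tested genes of the glutathione peroxidase family, named for the reduction of peroxides with glutathione, 1 was called in each direction. The median log2 fold change was -1.04. *Gpx1*, the common cytosolic form, rose from 168 ± 35.7 FPKM to 301 ± 32.9 FPKM (limma adjusted p = 0.045). *Gpx3*, the secreted form, fell from 20.4 ± 8.33 FPKM to 0.299 ± 0.321 FPKM (limma adjusted p = 0.00252). Of 18 tested entries of glutathione S-transferases, 2 were called lower, with a median of 0.14. *Gstt1* fell from 16.5 ± 5.58 FPKM to 1.76 ± 1.90 FPKM, and *Gstk1* from 21.0 ± 9.32 FPKM to 2.69 ± 2.90 FPKM (limma adjusted p = 0.0194 and 0.0325). None of the 18 was called higher, and *Gsta4*, counted with the members, did not pass either.

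Of 19 tested genes of the thioredoxin, peroxiredoxin and glutaredoxin systems 1 was called in each direction, with a median of 0.13. *Prdx6*, which encodes a peroxiredoxin, rose from 146 ± 21.5 FPKM to 289.6 ± 65.5 FPKM (limma adjusted p = 0.0378). *Msrb1*, which encodes a methionine sulfoxide reductase, fell from 78.9 ± 8.75 FPKM to 29.7 ± 6.15 FPKM (limma adjusted p = 0.0109). Of 8 tested genes of NADPH supply, 1 was called, with a median of -0.10. *Idh1*, which encodes the cytosolic isocitrate dehydrogenase that makes NADPH, fell from 51.0 ± 7.81 FPKM to 24.9 ± 7.69 FPKM (limma adjusted p = 0.0465). None of the 5 superoxide dismutase and catalase genes tested was called by limma, and their median was 0.23. Of these genes 0 had an unadjusted limma p under 0.05, against 3509 of all 12461 tested genes.

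The list of other detoxification and transport targets had 3 higher and 1 lower gene of 19 tested, with a median of -0.04. *Aldh3a1*, which encodes an aldehyde dehydrogenase, had 0.447, 0.567 and 0.934 FPKM in MEC, and 56.1, 402 and 133 FPKM in lines 199, 233 and 336. This was the largest change among the pathway genes tested, with a log2 difference of 6.47 (SE 0.67, limma adjusted p = 0.00389). The gene met the minimum for testing through its MEKO values alone. The line with the highest *Aldh3a1*, 233, had the lowest *Nqo1*. *Abcc1*, which encodes an exporter of glutathione conjugates, rose from 17.8 ± 5.56 FPKM to 55.1 ± 14.3 FPKM (limma adjusted p = 0.024). *Ugdh*, which encodes the enzyme that makes UDP-glucuronate, rose from 29.4 ± 5.93 FPKM to 57.5 ± 11.5 FPKM (limma adjusted p = 0.0487), and passed in only 2 of 13 alternatives. *Ptgr1*, which encodes a reductase of reactive lipids, fell from 10.96 ± 2.95 FPKM to 3.31 ± 1.14 FPKM (limma adjusted p = 0.0237).

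**Figure D4:**
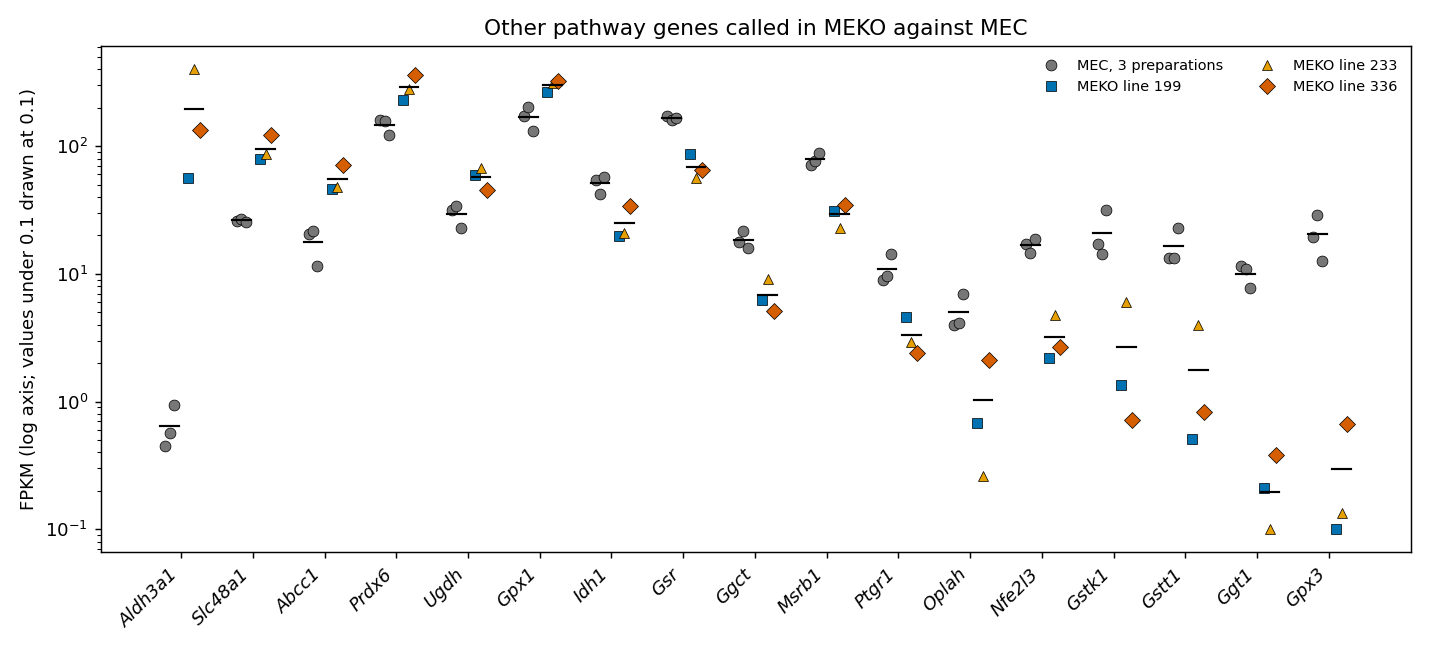
Expression of the 17 other pathway genes called in MEKO against MEC, in each library (FPKM, log axis, values under 0.1 drawn at 0.1). The 6 genes at the left rose and the 11 at the right fell; in each of them the 3 MEC values lie apart from the 3 MEKO values.

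Of 10 tested genes of heme and iron handling, 1 was called, with a median of 0.30. *Slc48a1*, which encodes a heme transporter, had 25.98, 27.0 and 25.6 FPKM in MEC, and 78.8, 86.9 and 122 FPKM in lines 199, 233 and 336, a log2 difference of 1.81 (SE 0.19, limma adjusted p = 0.00422). *Slc48a1* was thus higher in all lines, with line 336 at the top, as for *Hmox1*. Line 336 was also the highest library in *Hmox2*, *Blvra*, *Blvrb* and *Alas1*, which were not called. The ferritin chains *Fth1* and *Ftl1*, which store iron and are known NRF2 targets, are named after their values were seen. *Fth1* had 722, 785 and 660.4 FPKM in MEC, and 3878, 713 and 6288 FPKM in lines 199, 233 and 336. Lines 199 and 336 were far above MEC and line 233 was within its range (limma adjusted p = 0.176). The log2 fold change of *Fth1*, 1.84, was 2.77 without line 233 (limma adjusted p = 0.00701), 1.55 without line 199 (limma adjusted p = 0.278) and 1.2 without line 336 (limma adjusted p = 0.318). *Fth1* passed in 1 of 13 alternatives. *Ftl1* had 736, 805 and 730.03 FPKM in MEC, and 1091, 878 and 3234 FPKM in the lines, with line 336 the highest again (limma adjusted p = 0.247). Ferritin genes have near-identical processed copies in the mouse genome, and *Ftl1* shares 26.5% of its exonic bases with *Gm10252* on the opposite strand, so these levels are uncertain. *Hmox2*, the second heme oxygenase, had 33.6 to 43.4 FPKM in MEC and 22.6 to 46.5 FPKM in MEKO (limma adjusted p = 0.601), and 40.2% of its exonic bases are shared with *Cdip1* on the opposite strand.

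**Figure D5:**
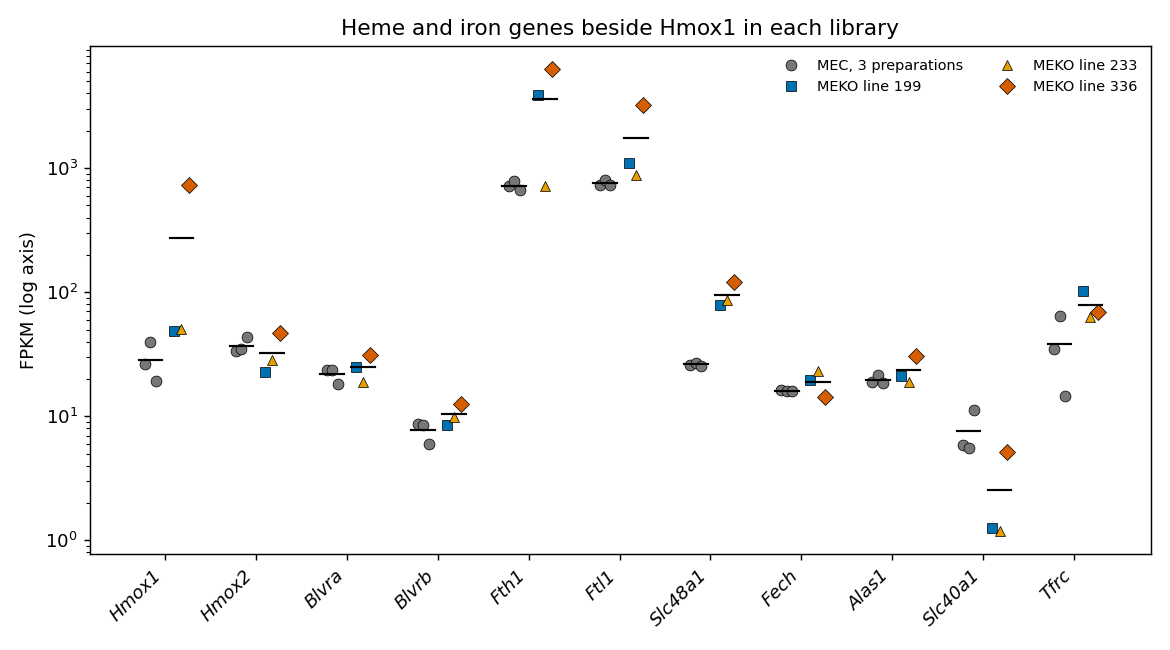
Expression of *Hmox1* and of the 10 tested heme and iron genes in each library (FPKM, log axis), with group means as black bars. Line 336 has the highest value in *Hmox1*, *Fth1*, *Ftl1*, *Slc48a1*, *Hmox2*, *Blvra*, *Blvrb* and *Alas1*, but not in *Fech*, *Slc40a1* and *Tfrc*. *Slc48a1* is the gene called in this list.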

How the data were processed

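The authors sequenced paired-end RNA libraries, trimmed the reads, aligned them to mm10 (GRCm38) with Bowtie2 and TopHat2 2.0.14 and quantified genes with Cufflinks 2.2.1, tool names as in the paper and the submitters' processing notes. The deposited table holds 1 FPKM value per gene and library, scaled by the authors to gene length and to the size of the library. Of 37755 entries, 2 hold no value. Joined gene names were split at commas, and a symbol with several entries was represented by that of highest mean. Entries with a mean FPKM of at least 1 over the 6 libraries, 12461 in all, were tested as log2(FPKM + 1) with limma 3.58.1 in R 4.3.3 (mean-variance trend, Benjamini-Hochberg adjustment over all tested genes). The thresholds, adjusted p under 0.05 and log2 fold change beyond 0.75, follow the study. The script was tested on simulated data. FPKM carry no read numbers, so depth is unknown and no counting interval was computed. Groups came from the sample titles. Positions and exon overlaps came from GENCODE M21 on GRCm38.

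All 10 members, the called genes of each pathway list (at most 5 by absolute fold change) and the targeted genes are named. The members and lists were chosen with earlier results of these data known, so they are described by counts and medians. No batch is given in the labels, so whether batches went with the groups is unknown. The part of batch in the differences could not be tested. The alternatives were a pseudocount of 0.1, no filter, a filter at a mean of 5 FPKM, quantile and upper-quartile normalization, no trend, array weights, adjusted p alone, a fold beyond 1 for single lines, and each library left out in turn.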

Additional observations from a re-analysis of the deposited data

How the results depend on the processing

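No member was called lower under any alternative. The count of members called higher, 0, became 1 with quantile normalization (*Txnrd1*) and 2 with array weights (*Txnrd1* and *Gsta4*), and was 0 to 1 when each library was left out, the 1 being *Gsta4* without line 336. The median log2 fold change of the members stayed between 0.36 and 0.53. *Gclc* changed sign with array weights (-0.01) and without line 199 (-0.12), and *Gclm* without MEC 3 (-0.03). With a library left out, *Gclc* ranged from -0.12 to 0.36 and *Gclm* from -0.03 to 0.38. The other 8 members kept their direction in all 13 alternatives. The 17 pathway genes called kept their direction too, and 11 of them kept the call in each alternative that used all libraries. Pathway genes called higher, 6, became 3 with no filter and 12 with array weights, and 2 to 10 with a library left out, the highest without line 199. Those called lower, 11, were 3 to 11 with a library left out. Over all genes, 329 higher became 600 with array weights and 48 to 568 with a library left out, and 905 lower became 501 with a filter at 5 FPKM, where fewer genes were tested, 1378 with array weights and 211 to 1398 with a library left out. The estimation of the array weights stopped before its tolerance was reached. With a fold beyond 1, members past the fold were 2, 2 and 1 in lines 199, 233 and 336. With a MEC library left out they were 3 to 6, 2 to 4 and 2 to 5. For these settings of the single lines the share of all tested genes was not computed. A loss shared by all genes therefore cannot be told from one of the members. The causes were not tested. No paired analysis was possible because the labels number the MEC preparations and the MEKO lines separately.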

Other observations

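Genes of the lists that did not pass the test but varied between lines are given as values, chosen after their values were seen. *Gsta3*, which encodes another glutathione S-transferase, had 0.335 to 1.05 FPKM in MEC, and 40.1, 3.66 and 1.12 FPKM in lines 199, 233 and 336 (limma adjusted p = 0.238). The order of the lines was that of *Gsta4*. *Gsta1* had another order, with 6.25, 8.74 and 0.866 FPKM in lines 199, 233 and 336 (limma adjusted p = 0.0687). In MEC *Gsta1* had a mean of 0.0638 FPKM, so it met the minimum for testing through MEKO alone. *Ephx1*, which encodes the microsomal epoxide hydrolase, had 25.1 to 62.7 FPKM in MEC, and 28.8, 238 and 259.7 FPKM in the same lines (limma adjusted p = 0.242). *Gsto1* had 136 to 204 FPKM in MEC, and 702, 199.9 and 557 FPKM in the lines (limma adjusted p = 0.112). *Gstp1*, which is hard to tell from *Gstp2* by sequence, had 111 to 128 FPKM in MEC, and 156, 143 and 464 FPKM in the lines (limma adjusted p = 0.268). Other genes of the lists varied by falling in some lines. *Gpx2* had 18.1 to 44.4 FPKM in MEC, and 109.7, 1.26 and 2.18 FPKM in the lines (limma adjusted p = 0.451). *Gstt2* had 7.41 to 13.7, and 0.0494, 8.29 and 0.342 FPKM (limma adjusted p = 0.144). *Gpx7* had 5.75 to 7.23, and 6.995, 0 and 0.0194 FPKM (limma adjusted p = 0.192). *Mgst1* had 117 to 427, and 51.0, 45.9 and 387 FPKM (limma adjusted p = 0.504).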
